A study of Mus musculus with 4 samples.

Results

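The expression of 10 chemokine genes was followed in cultured mouse podocytes exposed to interleukin-12 (IL-12), namely Ccl2, Ccl5, Ccl7, Cxcl1, Cxcl2, Cxcl5, Cxcl10, Cxcl12, Cxcl16 and Cx3cl1. They were picked by name, as ligands that podocytes have been described to make, with earlier results of these data known. All 10 were found among the 54532 genes of the deposited count table. Total RNA of the podocyte line MPC5 was sequenced in 2 libraries of a control group and 2 libraries of an IL-12 treatment group, which had received 400 ng/ml of IL-12 for 6 h. The comparison asks how IL-12 changes gene expression in podocytes, the cells whose injury marks minimal change disease. The control cultures were given saline, and neither the labels nor the study's methods give their time of harvest. The labels name the line as MPC5, whereas the study's methods describe a conditionally immortalized mouse podocyte line obtained from another laboratory, without that name. Both groups come from 1 line, which those methods grew with interferon-γ for proliferation and without it for differentiation. Nothing in the labels says that the libraries came from separate cultures, so the p-values measure only the spread between these libraries, which may be technical.

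Chemokines are small secreted proteins that bind G-protein-coupled receptors on leukocytes and direct where these cells move. Most are made on demand, when NF-κB, interferon-regulated factors and AP-1 act on their promoters, and many of their transcripts are short-lived. Cxcl12 is the usual exception, being made constitutively by stromal and epithelial cells, and podocyte Cxcl12 is known for acting on neighbouring glomerular endothelial cells during kidney development. Cx3cl1 and Cxcl16 differ from the rest in being made as membrane-anchored proteins that sheddases cut loose.

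The 4 libraries held between 18355379 and 20098012 counts, so that 3 counts, taken here as the limit of detection, correspond to between 0.152 and 0.166 CPM (counts scaled to a common library size). Of 14095 genes that passed the filter on low counts, 16.1% were higher and 14.4% were lower in the IL-12 treatment group at an adjusted p below 0.05 (edgeR quasi-likelihood test, Benjamini-Hochberg). The higher genes made up 52.8% of these calls, and 40.6% when libraries were scaled by total counts alone. Only 0.858% were higher and 0.752% lower by more than 2-fold. Of the 10 podocyte markers looked at, 6 passed the filter, 4 of them were higher and 1, Synpo, the gene of the actin-associated protein synaptopodin, was lower. The slit diaphragm gene Nphs1 was near absent, with counts of 0, 1, 0 and 0, and Ptpro was at 0 in all 4 libraries. The 10 leukocyte markers summed to 27.0 and 29.3 CPM in the control group and to 16.3 and 20.8 CPM in the IL-12 treatment group, with Cd3e and Adgre1 at 0 throughout and Ptprc at 3, 1, 6 and 12 counts. Most of that sum was Csf1r, the receptor of macrophage colony-stimulating factor, at 21.4 and 23.0 against 11.1 and 13.0 CPM, the 1 leukocyte marker called lower (log2 change -0.88 ± 0.11 (SE), edgeR adjusted p = 3.41e-06). None of the 5 endothelial markers passed the filter, and Tie1 and Emcn were at 0 throughout. Of the 5 mesangial or fibroblast markers 3 were higher and none was lower, and their sum was 201.4 and 200.4 CPM in the control group against 226.9 and 233.6 CPM after IL-12. Of the 5 tubular markers Lrp2 was lower and Umod was at 0, and their sum was 659.8 and 634 CPM against 518.2 and 559.5 CPM. Nearly all of that sum was Lrp2, at 658.2 and 631.7 against 516.4 and 556.9 CPM, and Cubn did not pass. The part of these other markers in the results below was not tested.

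Of the 10 chemokines, 6 passed the filter on low counts. Of these 6, 3 (Cx3cl1, Ccl2 and Cxcl10) were upregulated and none was downregulated, against the 16.1% and 14.4% of all tested genes. Of the 6 only Ccl2 rose by more than 2-fold and none fell by as much, beside the 0.858% and 0.752% of all tested genes. Both IL-12 libraries lay above both control libraries for 5 of the 6, where 31.7% of all tested genes did so and 31.2% lay below. The median log2 fold change of the 6 was 0.50, beside -0.0022 for all tested genes. The members were chosen with earlier results of these data known, so these contrasts with all tested genes are descriptive only. No chemokine was lower at an unadjusted p below 0.05 either, and DESeq2 and limma called none lower. In these bulk libraries a change in the number of producing cells and a change in RNA per cell cannot be told apart.

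**Figure D1:**
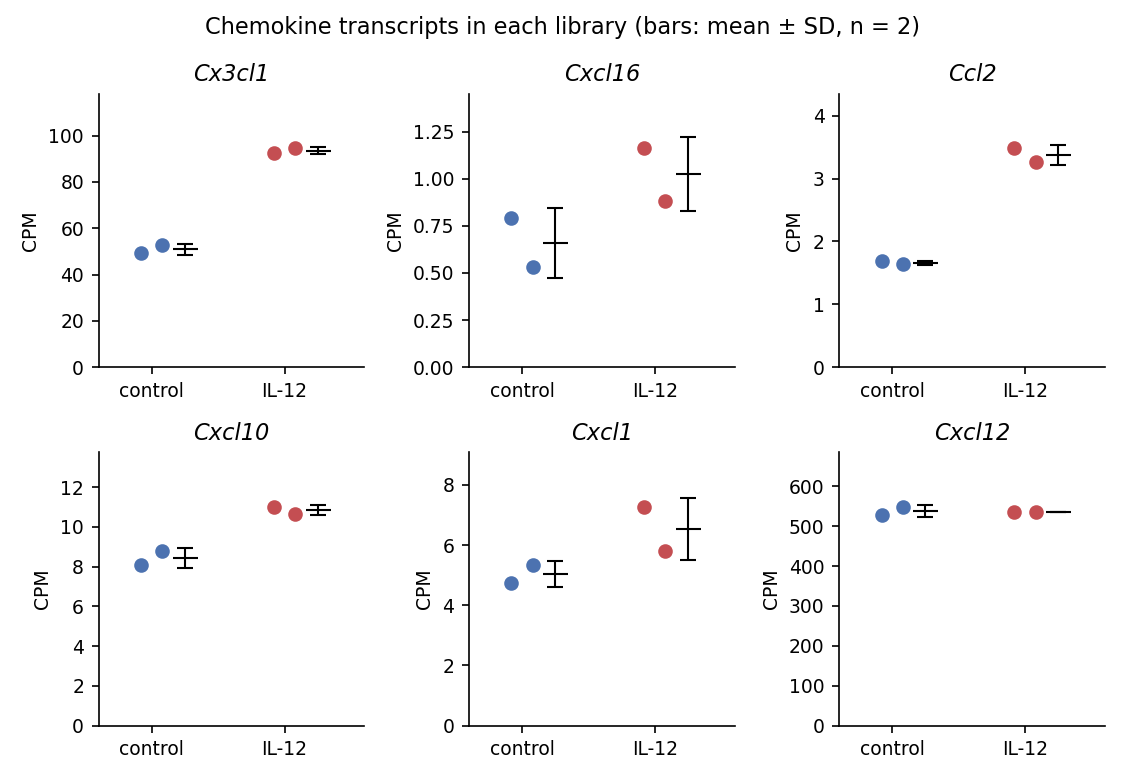
Level in CPM, on a linear axis from 0, of the 6 chemokines that passed the filter, with each point 1 library (blue control, red IL-12) and the bars the mean ± SD of the 2 libraries of a group. The IL-12 points lie above the control points for Cx3cl1, Ccl2, Cxcl10, Cxcl1 and Cxcl16, and among the control points for Cxcl12.

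Cx3cl1 (ENSMUSG00000031778, chr8:94772009-94782427, plus strand, GRCm38) encodes fractalkine, the membrane-anchored ligand that captures monocytes and T cells bearing Cx3cr1. It stood at 49.4 and 52.7 CPM in the control group and at 92.6 and 94.6 CPM in the IL-12 libraries. The groups were far apart, and each pair of libraries lay close together. The mean rose from 51.0 ± 2.38 to 93.6 ± 1.43 CPM (SD, n = 2 libraries a group), a log2 fold change of 0.87 ± 0.05 (SE) with a 95% interval of the fold change from 1.70 to 1.98 (edgeR, Benjamini-Hochberg adjusted p = 4.48e-10). This call held in all 14 alternative analyses, in which the log2 fold change ranged from 0.83 to 0.92.

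Cxcl16 (ENSMUSG00000018920, chr11:70453983-70459984, minus strand), the other membrane-anchored chemokine and the ligand of Cxcr6, was scarce. It was counted 15 and 10 times in the control group and 23 and 16 times in the IL-12 libraries. These correspond to 0.791 and 0.529 CPM against 1.16 and 0.883 CPM, so the groups did not overlap. The log2 fold change of 0.63 ± 0.43 (SE) did not pass the test, and the interval of the fold change ran from 0.830 to 2.90 (edgeR adjusted p = 0.301). Cxcl16 overlaps Zmynd15 on the opposite strand, which had 18 counts over all libraries beside 64 for Cxcl16, and whether counting used the strand is not given in the sources used here.

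Transcripts of the machinery that cuts both proteins from the membrane, and of the chemokine-trimming peptidase Dpp4, were described beside them. Of these 6 genes 5 passed the filter. Among these 5, 1 was higher and 2 were lower, beside the 16.1% and 14.4% of all tested genes. Timp3, an inhibitor of the sheddase Adam17, rose by 0.21 ± 0.03 (SE) on the log2 scale from 755 to 876 CPM (edgeR adjusted p = 5.68e-06). Rhbdf2, an inactive rhomboid needed for the maturation of Adam17, went from 48.0 to 39.4 CPM, a log2 change of -0.28 ± 0.06 (adjusted p = 0.00189). Adam17 itself went from 81.1 to 73.6 CPM (log2 change -0.14 ± 0.05, adjusted p = 0.037), a call that was lost in 8 of the 14 alternatives, with adjusted p values from 0.0785 to 0.201 when 1 library was left out. Adam10, the sheddase held to act without stimulation, was at 221 and 218 CPM (log2 change -0.02 ± 0.04, adjusted p = 0.759). Rhbdf1 did not pass at an adjusted p of 0.0713, and Dpp4, a peptidase that trims chemokines such as Cxcl10 and Cxcl12, was counted 2, 5, 2 and 4 times.

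The 2 genes for monocyte chemoattractants sit 8.259 kb apart on chromosome 11. Ccl2 (ENSMUSG00000035385, chr11:82035571-82037453, plus strand), the principal ligand of Ccr2, was at 1.69 and 1.64 CPM in the control group and at 3.48 and 3.26 CPM in the IL-12 libraries. The groups did not overlap, although these levels rest on only 32, 31, 69 and 59 counts. The mean rose from 1.66 ± 0.0329 to 3.37 ± 0.160 CPM, a log2 fold change of 1.02 ± 0.25 (SE) and a fold change between 1.41 and 2.91 (edgeR adjusted p = 0.00411). Leaving out the first IL-12 library ended the call, at a log2 fold change of 0.97 and an adjusted p of 0.0606. Ccl7 (chr11:82045712-82047525, plus strand), another Ccr2 ligand, was counted only 2 and 0 times in the control group and 4 and 2 times in the IL-12 treatment group, too few for the test. Ccl5 (chr11:83525778-83530518, minus strand), an attractant of T cells and monocytes, was counted once, in the first control library, and its 0 counts elsewhere allow up to 0.166 CPM.

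The promoter windows of 4 members are printed here, because 3 inducible ligands (Cxcl10, Cxcl1, Cxcl2) and the most clearly upregulated member (Cx3cl1) can be read side by side in them. RefSeq windows (GRCm38.p6, 250 bases before to 50 after the annotated start) were matched for 5 of the 10 members. Each is written 5′ to 3′ on the gene's strand, with capitals marking matches to the NF-κB consensus, to the AP-1 consensus TGANTCA, to the interferon-stimulated response element (GAAA, any 2 bases, GAAA) or to the TATA box TATAAA. The first 3 motifs were searched on both strands and the TATA box on the sense strand only.
Cx3cl1, chr8:94771930-94772229, plus strand: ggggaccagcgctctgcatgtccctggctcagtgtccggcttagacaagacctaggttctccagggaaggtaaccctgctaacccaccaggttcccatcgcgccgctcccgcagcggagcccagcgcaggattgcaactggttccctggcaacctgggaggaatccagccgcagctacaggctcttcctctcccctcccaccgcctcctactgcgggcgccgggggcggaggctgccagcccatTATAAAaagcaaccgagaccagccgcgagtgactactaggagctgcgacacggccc
Cxcl10, chr5:92348840-92349139, minus strand: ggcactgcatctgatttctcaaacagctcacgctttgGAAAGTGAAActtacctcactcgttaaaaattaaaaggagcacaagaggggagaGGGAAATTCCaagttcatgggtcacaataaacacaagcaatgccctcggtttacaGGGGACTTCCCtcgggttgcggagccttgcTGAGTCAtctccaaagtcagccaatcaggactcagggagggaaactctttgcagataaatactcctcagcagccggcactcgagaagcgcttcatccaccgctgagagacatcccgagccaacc
Cxcl1, chr5:90890995-90891294, plus strand: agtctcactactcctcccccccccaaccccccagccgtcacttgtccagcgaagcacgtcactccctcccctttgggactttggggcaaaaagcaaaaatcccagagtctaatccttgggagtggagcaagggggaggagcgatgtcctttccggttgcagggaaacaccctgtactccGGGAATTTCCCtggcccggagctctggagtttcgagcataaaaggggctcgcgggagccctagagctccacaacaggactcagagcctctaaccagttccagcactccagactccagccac
Cxcl2, chr5:90903649-90903948, plus strand: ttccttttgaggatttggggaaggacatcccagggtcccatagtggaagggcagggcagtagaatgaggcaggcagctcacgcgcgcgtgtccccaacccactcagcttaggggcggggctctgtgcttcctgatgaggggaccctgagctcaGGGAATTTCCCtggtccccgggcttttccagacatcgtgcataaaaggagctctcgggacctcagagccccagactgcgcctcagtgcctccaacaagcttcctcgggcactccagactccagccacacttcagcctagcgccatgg

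The Cxcl1 window held the NF-κB consensus 71 bases before the start, and the Cxcl2 window held the same 11 letters 97 bases before its start. In both, the run read as a match on either strand, as a pair of matches offset by 1 base. The Cxcl10 window held an NF-κB match 159 bases before the start and overlapping matches 104 and 103 bases before it, an AP-1 match 74 bases before it and an interferon-stimulated response element 213 bases before it. Of the 4 motifs the Cx3cl1 window held only the letters TATAAA, 6 bases before the RefSeq start. That start lies 171 bases downstream of the start in the deposited table, so the match falls within the deposited gene. The exact search leaves out near matches, such as cataaa in the printed Cxcl1 and Cxcl2 windows. The window of Cxcl12 held none of the 4 motifs. Over 32851 RefSeq windows the NF-κB consensus occurred in 8.46%, the AP-1 consensus in 7.81%, the interferon-stimulated response element in 3.44% and the TATA box in 8.32%. These matches describe letters only, and binding was not measured here.

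Cxcl10 (ENSMUSG00000034855, chr5:92346638-92348889, minus strand), an interferon-inducible ligand of Cxcr3 on effector T cells, was at 8.07 and 8.79 CPM in the control group and at 11.01 and 10.7 CPM in the IL-12 libraries. The groups did not overlap, and their difference was modest. The mean rose from 8.43 ± 0.508 to 10.8 ± 0.248 CPM, with a log2 fold change of 0.36 ± 0.13 (SE) and a fold change between 1.07 and 1.55 (edgeR adjusted p = 0.0368). This call was the least firm of the 3. It was lost in 7 of the 14 alternatives, among them DESeq2 with an adjusted p of 0.205, scaling by total counts with 0.0629, and no filter on low counts with 0.0791. Leaving out any 1 of the 4 libraries also ended it, with adjusted p values of 0.189 and 0.0522 without the first and second control library and of 0.156 and 0.0927 without the first and second IL-12 library. Of the other Cxcr3 ligands, Cxcl9 was at 0 in all libraries and Cxcl11 had 7 counts in all.

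Cxcl1 (ENSMUSG00000029380, chr5:90891241-90893115, plus strand), a neutrophil attractant that acts through Cxcr2, was at 4.75 and 5.35 CPM in the control group and at 7.27 and 5.80 CPM in the IL-12 libraries. The groups did not overlap, but the second IL-12 library lay nearer to the control libraries than to the first. The log2 fold change was 0.38 ± 0.17 (SE), with a fold change between 1.02 and 1.66, and it missed the threshold after adjustment (edgeR adjusted p = 0.105). Leaving out 1 library moved the log2 change between 0.20, without the first IL-12 library, and 0.53, without the second. Cxcl2 (chr5:90903871-90905938, plus strand) lies 10.76 kb from Cxcl1 and was counted 0, 4, 0 and 0 times. Cxcl5 (chr5:90759360-90761624, plus strand), another Cxcr2 ligand, was counted once, in the first IL-12 library. Neither could be tested, and 3 counts, up to 0.166 CPM, is the limit that a count of 0 allows.

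Cxcl12 (ENSMUSG00000061353, chr6:117168535-117181367, plus strand), the ligand of Cxcr4 and Ackr3, was by far the most counted chemokine. It was at 527 and 549 CPM in the control group and at 536 and 535 CPM in the IL-12 libraries. The IL-12 values fell between the control values. The log2 fold change was -0.0064 ± 0.03 (SE), and the interval of the fold change, from 0.953 to 1.04, lay on both sides of 1 (edgeR adjusted p = 0.903). Its 2 receptors were unlike each other, with Cxcr4 at 0 in all libraries and Ackr3, the receptor that takes up and degrades Cxcl12, readily counted.

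**Figure D2:**
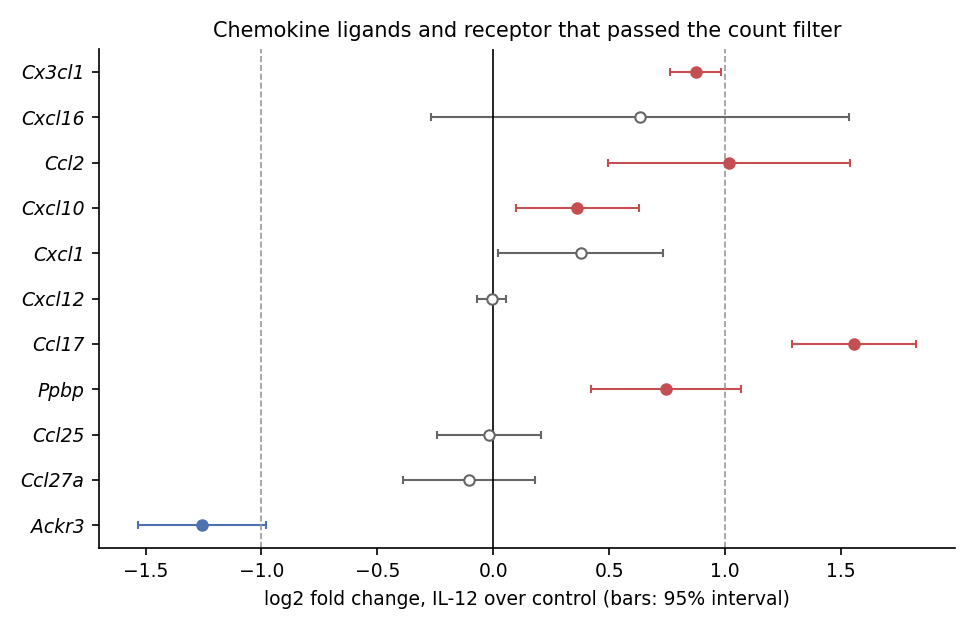
Log2 fold change of the IL-12 treatment group over the control group, with its 95% interval, for the 6 chemokines and the other chemokine ligands and receptors that passed the filter. Filled points passed at an adjusted p below 0.05 and dashed lines mark 2-fold. Ccl17 lies farthest to the right at 1.56 and Ackr3 farthest to the left at -1.26, with Cxcl12 at 0.

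Levels of different chemokines were compared per length, as counts scaled by the deposited gene length in kilobases and by library size (RPKM). In the control group the order was Cxcl12 at 65.8 ± 1.87, Cx3cl1 at 13.0 ± 0.605, Cxcl10 at 3.74 ± 0.226, Cxcl1 at 2.69 ± 0.226, Ccl2 at 1.46 ± 0.0289 and Cxcl16 at 0.219 ± 0.0612 RPKM. After IL-12 the same order ran Cxcl12 at 65.5 ± 0.00609, Cx3cl1 at 23.8 ± 0.365, Cxcl10 at 4.81 ± 0.110, Cxcl1 at 3.49 ± 0.556, Ccl2 at 2.96 ± 0.141 and Cxcl16 at 0.338 ± 0.0651 RPKM. The order of these 6 was the same in each of the 4 libraries. Cxcl1 and Ccl2 were the only neighbours whose means, after IL-12, differed by less than an SD, that of Cxcl1. The deposited length covers introns for Cxcl1, Cxcl2 and Cxcl10. Among others, it exceeds the longest coding transcript for Cxcl12 (8176 against 5627 bases) and Ccl2 (1138 against 813 bases). The order did not change when the longest or the shortest coding transcript of each gene was used in its place. This alternative was chosen after seeing the data.

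Cxcl12 made 75.8% and 75.4% of the summed per-length level of the 10 chemokines in the control group, against 64.5% and 65.1% after IL-12. The share of Cx3cl1 was 14.8% and 15.1% against 23.2% and 23.9%, and that of Ccl2 was 1.74% and 1.62% against 3.02% and 2.84%. Cxcl12 thus took a smaller share at a level that stayed between its control values. The summed level was 85.1 and 89.0 RPKM in the control group and 101.5 and 100.7 RPKM in the IL-12 libraries. Without Cxcl12 it was 20.6 and 21.9 RPKM against 36.0 and 35.2 RPKM. These shares and sums depend on the length used. Per shortest coding transcript, Cx3cl1 stood at 130.9 and 139.8 RPKM beside 280.6 and 292.2 RPKM for Cxcl12 in the control group. In the IL-12 libraries these were 245.5 and 250.9 RPKM beside 285.1 and 285.1 RPKM.

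**Figure D3:**
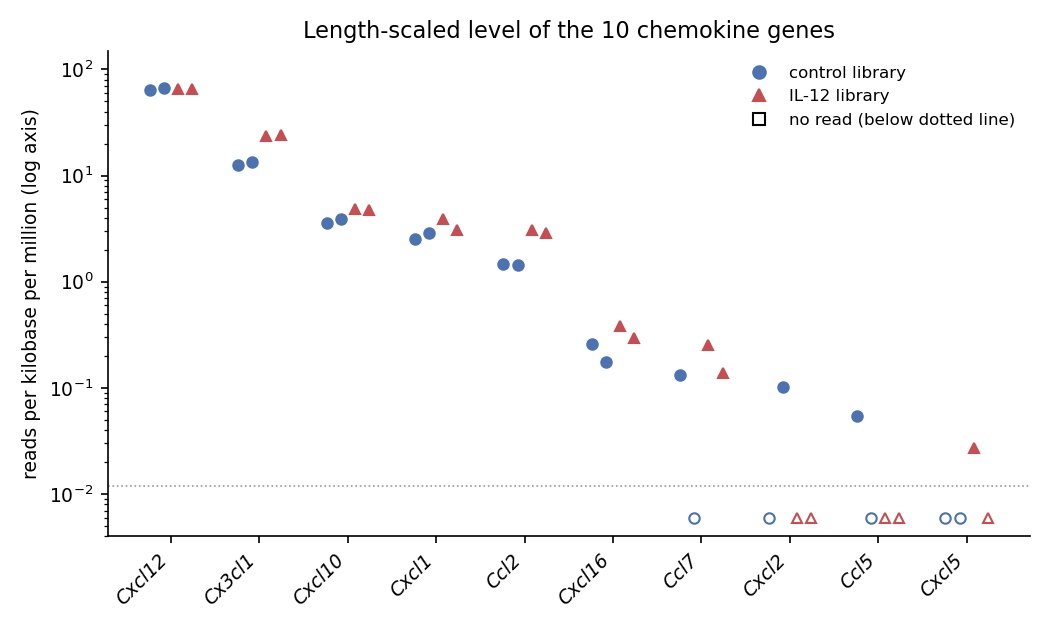
Level per length (RPKM, log axis) of the 10 chemokines, ordered by level, with each filled point 1 library (circles control, triangles IL-12) and open points below the dotted line for libraries with no count. The order from Cxcl12 at 65.8 to Cxcl16 at 0.219 RPKM in the control group is kept after IL-12, and Cx3cl1 moves from 13.0 to 23.8 RPKM.

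A list of 28 further chemokine ligands was looked at, of which 4 passed the filter and 18 were at 0 in all libraries. Of these 4, Ccl17 and Ppbp rose and none fell, beside the 16.1% higher and 14.4% lower of all tested genes. Ccl17 (ENSMUSG00000031780), the ligand of Ccr4 on type 2 and regulatory T cells, was at 6.01 and 5.19 CPM in the control group and at 16.0 and 17.0 CPM in the IL-12 libraries. Its log2 fold change of 1.56 ± 0.13 (SE) exceeded that of every listed ligand tested, the members included (edgeR adjusted p = 2.81e-08). Ppbp (ENSMUSG00000029372), a platelet-associated ligand of Cxcr2, was at 7.65 and 5.35 CPM against 10.9 and 10.9 CPM, with a log2 fold change of 0.74 ± 0.15 (adjusted p = 0.00101). Ccl25 and Ccl27a had log2 changes of -0.02 ± 0.11 and -0.11 ± 0.14 (edgeR adjusted p = 0.925 and 0.621), and each overlaps a more highly counted gene, Elavl1 and Il11ra1. The overlap of Ccl27a with Il11ra1 spans only bases 41769467 to 41769474 of chromosome 4. Of the 50-base stretches of Ccl25, 2.06% also occur in Elavl1. Of the 50-base stretches of Ccl27a, 45% also occur in transcripts of other genes, among them Ccl27b.

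Grouped by receptor, the Cxcr2 ligands Cxcl1, Cxcl2, Cxcl3, Cxcl5 and Ppbp summed to 12.4 and 10.9 CPM in the control group and to 18.2 and 16.7 CPM in the IL-12 libraries. The Ccr2 ligands Ccl2, Ccl7 and Ccl12 summed to 1.79 and 1.64 CPM against 3.69 and 3.37 CPM. For the Cxcr3 ligands Cxcl9, Cxcl10 and Cxcl11 the sums were 8.17 and 8.79 CPM against 11.1 and 10.9 CPM. Each of these sums was higher in both IL-12 libraries, and each was carried mainly by 1 or 2 of its genes.

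Ccl17 lies 28.03 kb downstream of Cx3cl1 on chromosome 8, at chr8:94810453-94812036, and the neighbourhood was described after these values had been seen. Of 12 genes within 100 kb of Cx3cl1, 6 passed the filter, where 16.1% of all tested genes were higher and 14.4% lower. Ccl17 and Polr2c, a subunit of RNA polymerase II, were higher, the latter by 0.23 ± 0.06 (SE) on the log2 scale (edgeR adjusted p = 0.00428). The other 4, Arl2bp, Ciapin1, Coq9 and Dok4, had log2 changes from -0.18 to 0.10 and did not pass. Ccl22, the second Ccr4 ligand of this cluster, was at 0 in all libraries. Around Cxcl10, beside the same shares of all tested genes, 2 of the 4 tested within 100 kb were higher and 1 was lower. Of these Sdad1 changed more than Cxcl10 itself, by 0.50 ± 0.05 (SE) on the log2 scale (edgeR adjusted p = 6.4e-07). Around Cxcl1 the 1 tested gene, Mthfd2l, did not pass, with a log2 change of 0.12 (adjusted p = 0.214).

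**Figure D4:**
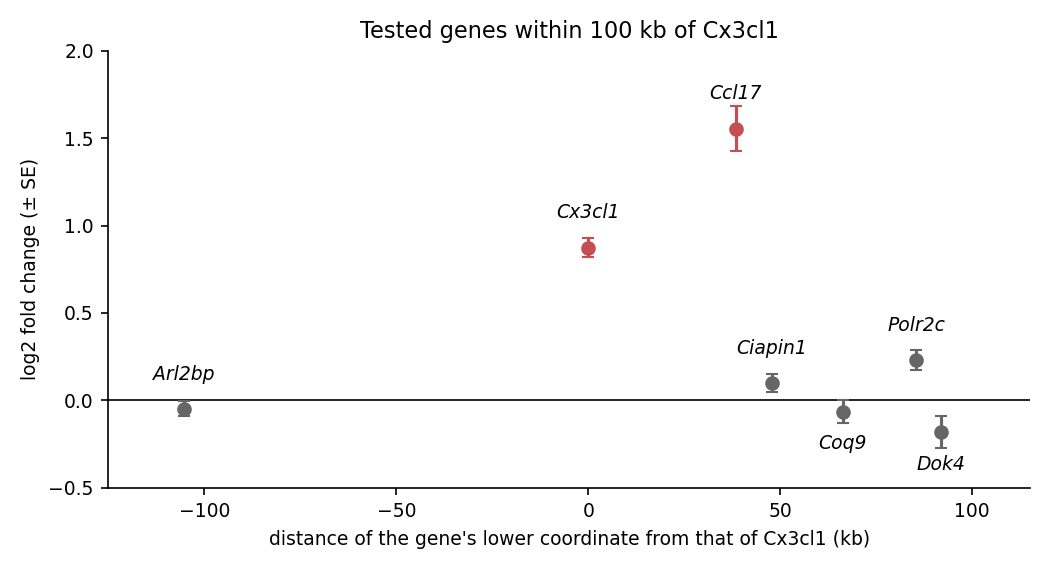
Log2 fold change ± SE of Cx3cl1 and the 6 tested genes within 100 kb of it, against the distance in kb of each gene's lower coordinate from that of Cx3cl1, with the chemokines in red. Cx3cl1 at 0.87 and Ccl17 at 1.56 stand above the other genes, which lie between -0.18 and 0.23.

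Of 23 chemokine receptors 13 were at 0 in all libraries, including Cxcr2, Ccr2, Cxcr3 and Cxcr4, through which most of the members act. Ackr3 (ENSMUSG00000044337) was the 1 receptor that passed the filter, and it fell. It was at 13.1 and 13.3 CPM in the control group and at 5.71 and 5.36 CPM in the IL-12 libraries, with no overlap and a log2 fold change of -1.26 ± 0.13 (SE; edgeR adjusted p = 6.44e-07). This call held in all 14 alternatives. Cx3cr1, the receptor of Cx3cl1, was counted 0, 3, 1 and 5 times, and Cxcr6, the receptor of Cxcl16, 8, 9, 5 and 6 times.

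Genes that act on chemokine transcription and mRNA stability made a list of 23, all of which passed the filter. In it, 6 were higher, 3 were lower and 14 did not pass, beside the 16.1% higher and 14.4% lower of all tested genes. The median log2 fold change of the list was 0.07, beside -0.0022 for all tested genes. The count of lower genes was not firm, and fell from 3 to 1 with DESeq2, with no filter on low counts, and without the first control library or the first IL-12 library. Among the NF-κB inhibitors, Tnfaip3, a ubiquitin-editing enzyme that NF-κB itself induces, rose from 26.7 to 47.1 CPM by 0.82 ± 0.07 (SE) on the log2 scale (edgeR adjusted p = 3.97e-08). Nfkbie rose from 8.19 to 12.9 CPM by 0.65 ± 0.13 (adjusted p = 0.000886). The precursors Nfkb1 and Nfkb2 rose by 0.18 ± 0.04 and 0.17 ± 0.04 (adjusted p = 0.000624 and 0.00541), and the call for Nfkb2 was lost without the second control library (0.106) or the first IL-12 library (0.0774). Elavl1, whose protein stabilises AU-rich mRNAs, and Zfp36l2, whose protein promotes their decay, rose by 0.21 ± 0.04 and 0.19 ± 0.04 (adjusted p = 0.00124 and 0.00158).

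Irf7, an interferon-induced transcription factor, fell from 4.73 to 2.28 CPM, with a log2 fold change of -1.04 ± 0.22 (SE; edgeR adjusted p = 0.0012). Its end overlaps that of Phrf1, which had 9447 counts beside 266 for Irf7. That overlap spans only bases 141262706 to 141262750 of chromosome 7, and 0% of the 50-base stretches of Irf7 occur in transcripts of other genes. Zfp36l1, a paralogue of Zfp36l2, had a log2 change of -0.17 ± 0.05 (adjusted p = 0.0153), a call lost in 6 of the 14 alternatives and without the first control library (0.203) or the first IL-12 library (0.185). Of the 50-base stretches of Zfp36l1, 54.4% also occur in transcripts of other genes. The third lower gene was Rela, named here after its value was seen, at -0.12 ± 0.04 (edgeR adjusted p = 0.0412). Of the highly expressed genes that did not pass, Nfkbiz stood at 0.0039, Chuk at 0.10 and Ikbkb at -0.09 on the log2 scale (adjusted p = 0.963, 0.113 and 0.237).

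**Figure D5:**
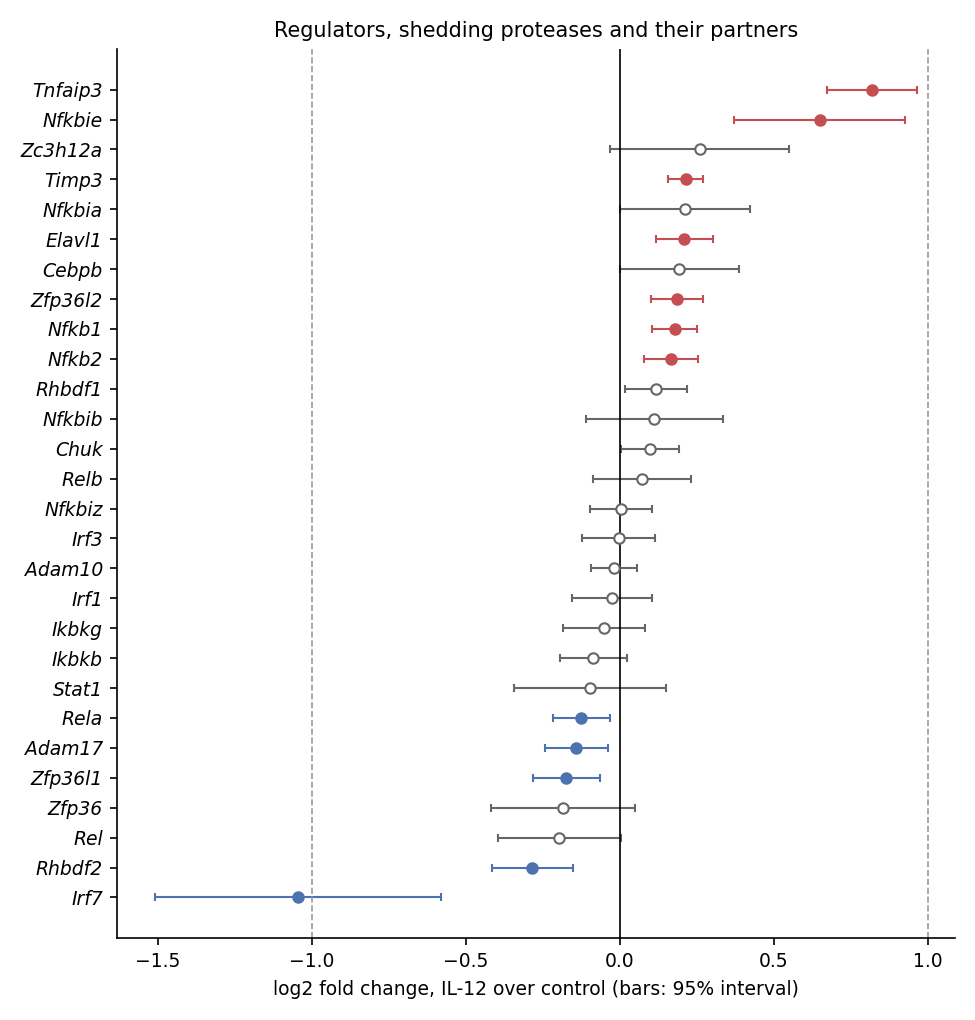
Log2 fold change with its 95% interval of the regulators of chemokine transcription and mRNA decay and of the shedding genes, with filled points for an adjusted p below 0.05 and dashed lines at 2-fold. Tnfaip3 at 0.82 and Nfkbie at 0.65 lie highest and Irf7 at -1.04 lowest.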

How the data were processed

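RNA sequencing of 4 MPC5 libraries was analysed, grouped by their labels. The authors deposited 1 table of raw read counts per gene and the FPKM of each library, with Ensembl IDs, names, coordinates and lengths. The deposited FPKM were the counts divided by length and library total times a factor constant within a library, so they hold nothing beyond the counts and served only for an alternative. The submitters' processing notes name HISAT2, StringTie and mm9, without roles. The coordinates are those of GRCm38, since 98.3% of 54409 shared genes had the coordinates of GENCODE M21, and all 10 members did. The counter and its strand setting are not given in the sources used here.

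Counts were scaled by TMM and filtered by filterByExpr (minimum count 10, minimum total 15), which kept 14095 genes. They were tested without a block by the quasi-likelihood test of edgeR 4.0.16 (R 4.3.3), with Benjamini-Hochberg adjustment over all of them. The SE is the log2 fold change over the square root of F, and 95% intervals use the t distribution of the fit. Intervals, and the limit of 3 counts per library, cover these libraries and their counting error only. The scripts were tested on simulated data. An exact permutation test of 2 against 2 libraries could not reach the threshold.

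Same-numbered libraries showed no shared shift: their deviations from their group means had a correlation of -0.0297 over 14095 genes. With 2 libraries a group, this cannot show whether the libraries were paired. Libraries of 1 group differed beyond sampling noise (chi-square per degree of freedom 2.134 and 2.415), so none was taken for a repeat of another. Named were every member, up to 8 genes of each list that passed by smallest p, up to 3 of highest CPM that did not, and markers at 0 throughout. The members and lists were chosen with earlier results of these data known. Alternatives were other scalings, limma 3.58.1, DESeq2 1.42.0, other filters, log2(FPKM + 1) and log2(FPKM + 0.1), a replicate block and leaving out each library. Genes with fewer counts than the filter asks were described by their counts.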

Additional observations from a re-analysis of the deposited data

How the results depend on the processing

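The test was repeated in 14 ways. The 6 tested members gave 83 values, of which 74 kept their direction and their side of the threshold, 8 lost a call and 1 changed sign, and DESeq2 gave no adjusted p for Cxcl16. The number of members higher was 3, fell to 2 with total counts only, the DESeq2 test and no filter, and ranged from 1 to 2 when 1 library was left out. The number higher by over 2-fold fell from 1 to 0 with total counts only and with limma on log2(FPKM + 1) or log2(FPKM + 0.1), where a pseudocount shrinks low genes, and ranged from 0 to 1 when 1 library was left out. It was 0 without the second control or the first IL-12 library. The fold change of Ccl2 lies close to 2. No member was lower in any alternative. With the replicate block 3 members were higher, 1 of them by over 2-fold, and 0 were lower. Changes near 0 turned sign: leaving out 1 library moved the log2 change of Cxcl12 between -0.033 and 0.023, of Ccl25 between -0.048 and 0.014 and of Nfkbiz between -0.050 and 0.060, and Nfkbiz stood at -0.037 with total counts only and at -0.012 with upper quartile scaling. The cause was not tested. Counts of 10 to 69 a library limit Ccl2 and Cxcl16, and Ccl5, Ccl7, Cxcl2 and Cxcl5 were too shallow to test. Leaving out 1 library leaves a group of 1, assumed to vary like the other.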
